A study of Arabidopsis thaliana with 12 samples.

Results

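The 10 genes described here are the NF-YA genes NF-YA1 (AT5G12840), NF-YA2 (AT3G05690), NF-YA3 (AT1G72830), NF-YA5 (AT1G54160), NF-YA8 (AT1G17590), NF-YA9 (AT3G20910) and NF-YA10 (AT5G06510), and the HAIRY MERISTEM genes HAM1 (AT2G45160), HAM2 (AT3G60630) and HAM3 (AT4G00150), out of 32833 genes in the count table. They were chosen by name, the 7 NF-YA genes as targets of the microRNA miR169 and the 3 HAM genes as targets of miR171. RNA-seq was done on whole 16-day-old Arabidopsis seedlings grown under constant light, with 3 libraries of WT and 3 of each mutant, se-1, cbp20 and cbp80, all in the Col-0 accession. SE is SERRATE, an RNA processing factor, and se-1 is a partial loss-of-function allele, since plants without SE do not survive. CBP20 and CBP80 form the nuclear cap-binding complex, and the labels of these libraries do not name the cbp20 and cbp80 alleles. The series describes the triplicates as pools of different plants, so p-values measure the spread between pools.

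NF-Y factors are complexes of an NF-YA, an NF-YB and an NF-YC subunit that bind CCAAT boxes in promoters, and the NF-YA subunit makes the contact with the CCAAT sequence. HAM genes encode GRAS-domain transcription factors that keep stem cells in the shoot meristem undifferentiated and repress chlorophyll synthesis. In plants, miR169 and miR171 pair with the transcripts of these genes and direct their cleavage, and both microRNAs are cut from capped and polyadenylated precursors with the help of SE and the cap-binding complex.

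There are 4 guide strands of miR169 and 3 of miR170 and miR171 annotated. They are shown because the sites in the transcripts are read against them. The capitals mark the seed, bases 2 to 8 from the 5′ end, and the sequences were read from the TAIR10.1 genome at the positions RefSeq gives.
miR169a-5p: cAGCCAAGgaugacuugccga
miR169b-5p and miR169c: cAGCCAAGgaugacuugccgg
miR169d, miR169e, miR169f-5p and miR169g-5p: uGAGCCAAggaugacuugccg
miR169h to miR169n: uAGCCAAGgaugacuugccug
miR170-3p: uGAUUGAGccgugucaauauc
miR171a-3p: uGAUUGAGccgcgccaauauc
miR171b-3p and miR171c-3p: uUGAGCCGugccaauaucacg
By seed, miR169a, miR169b, miR169c and miR169h to miR169n form one group and miR169d to miR169g another, in which the same bases are shifted by 1 position. The seed of miR170-3p is that of miR171a-3p, while miR171b-3p and miR171c-3p share another.

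In the spliced transcripts, the best ungapped site of each gene was found by a penalty of 1 for a mismatch and 0.5 for a G:U pair, doubled at guide positions 2 to 13. Capitals now mark the bases of the site that do not form a Watson-Crick pair with the best guide, and each site is written 5′ to 3′ on the strand of the gene.
HAM1, HAM2 and HAM3: gauauuggcgcggcucaauca
NF-YA2 and NF-YA10: AggcaaAucaucUuuggcuca
NF-YA1: ccggcaaAucauUcuuggcuU
NF-YA9: GcggcaaUucauUcuuggcuU
NF-YA3: AGggGaagucauccuuggcua
NF-YA5: AcggGaagucauccuuggcuA
NF-YA8: AaggGaagucauccuuggcuG
The HAM site was the same in all 3 genes, paired with miR171a-3p at every base, and lay in the coding sequence, at chr2:18619128-18619148 in HAM1, chr3:22411544-22411564 in HAM2 and chr4:58411-58431 in HAM3, each time on the minus strand. The 7 NF-YA sites lay in the 3′ UTR and were held by all annotated isoforms, 1 to 7 of a gene. NF-YA2 (chr3:1676806-1676826, minus strand) and NF-YA10 (chr5:1986750-1986770, plus strand) held the same 21 bases, best paired with miR169d to miR169g, with a penalty of 3. NF-YA2 and NF-YA10 had a G:U pair at guide position 9, as did NF-YA1 and NF-YA9, which had penalties of 3 and 4. By contrast, NF-YA3, NF-YA5 and NF-YA8 paired with the guide at all of positions 2 to 13. Their penalties were 2.5, 3 and 2.5. Of 31346 genes with an mRNA annotated, 10 (0.0319%) had a miR169 site and 5 (0.016%) a miR170 or miR171 site at a penalty of 4 or less. These 15 hits include all 10 genes and NF-YA6 (AT3G14020), whose site had a penalty of 2. A match is a description of the sequence, and cleavage was not measured here.

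The libraries held 18565569 to 27068656 counted read pairs, and a count of 3, the floor used here, was 0.111 to 0.162 CPM (counts per 1e6 counts of the library, for all later values after TMM scaling). The floor covers counting error only, since the reads carry no molecular identifiers, while the intervals of fold changes come from the fits and include the spread between libraries. The mutated gene checks only 1 label. CBP20 had 33.3 to 39.4 CPM in WT and 11.2 to 13.6 CPM in cbp20, a log2 fold change of -1.55 (adjusted p = 5.37e-08), whereas SE in se-1 (-0.06, adjusted p = 0.491) and CBP80 in cbp80 (-0.16, adjusted p = 0.174) did not pass the test. Exons of NF-YA5 share 31.8% of their bases with genes on the other strand, where pairs were not counted, although its miR169 site lies outside those exons.

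All 10 genes had at least 10 counts in every library and entered every test. Per kb of exon, the levels in WT ran from HAM1 (20.8 ± 0.863 CPM per kb, SD, n = 3) through NF-YA1 (16.9 ± 1.26), HAM3 (14.1 ± 1.202), HAM2 (12.3 ± 1.05), NF-YA2 (7.37 ± 0.793), NF-YA9 (7.01 ± 0.976), NF-YA3 (3.604 ± 0.402), NF-YA8 (2.79 ± 0.103) and NF-YA5 (1.38 ± 0.119) to NF-YA10 (0.728 ± 0.223). Of neighbours in this order, HAM3 and HAM2 overlapped between libraries, as did NF-YA2 and NF-YA9, and the others stood apart. In se-1, HAM2 (15.2 ± 0.0323 CPM per kb) and NF-YA2 (13.7 ± 0.547) both stood above HAM3 (10.7 ± 1.36), with no overlap between neighbours. HAM1 and NF-YA1 were the first and second and NF-YA10 the last in all 4 genotypes. The HAM genes are made of 1 exon each, and the NF-YA genes of 3 to 7.

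**Figure D1:**
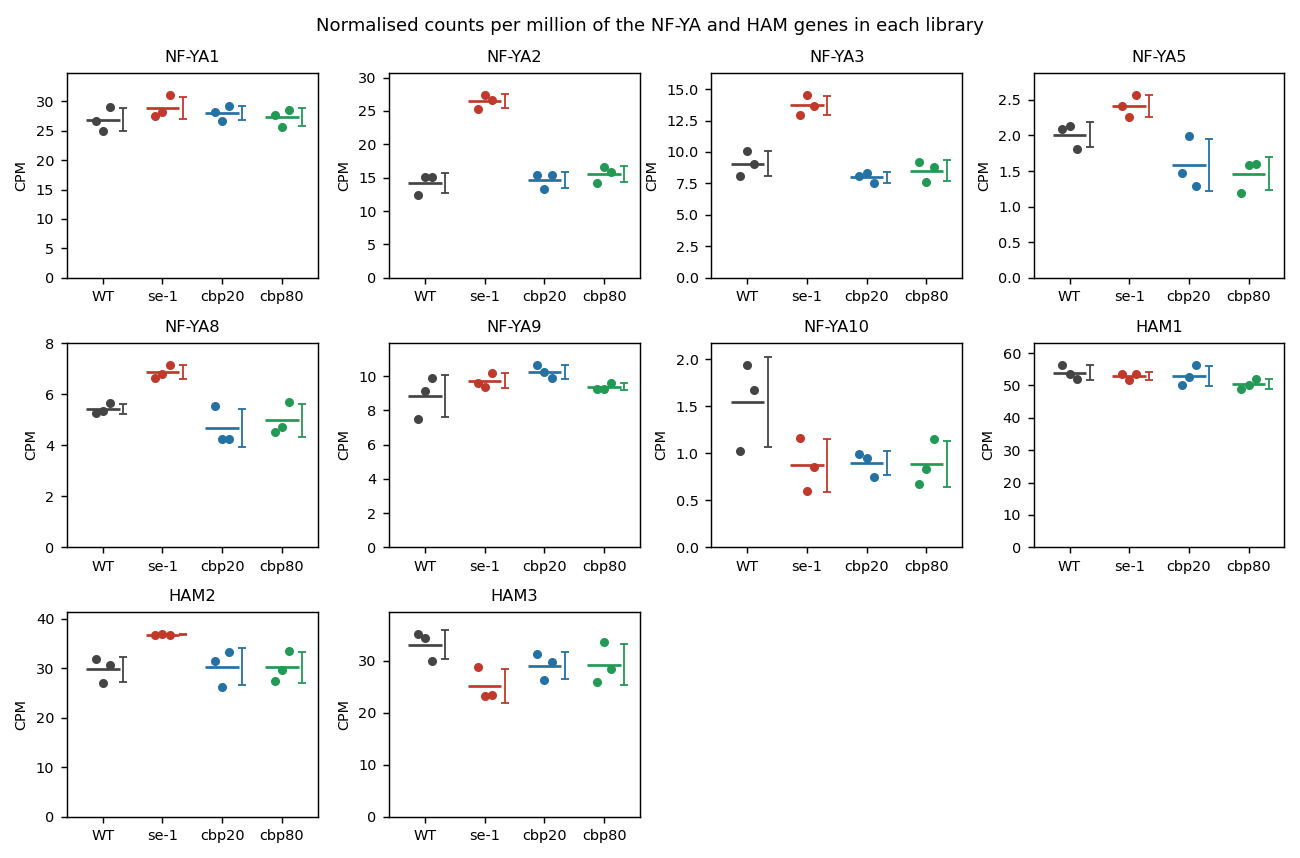
Each panel plots the CPM of 1 gene (y axis from 0) in the 12 libraries by genotype (x axis), with points for libraries, horizontal lines for the mean and bars for the SD (n = 3). NF-YA2 is at 25.3 to 27.4 CPM in se-1 and at 12.4 to 16.6 CPM in all other libraries, while HAM3 is lower in se-1 and NF-YA10 has wide bars.

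The comparison of se-1 with WT asks which of these transcripts depend on SE. In se-1, 4 of the 10 genes rose (NF-YA2, NF-YA3, NF-YA8 and HAM2) and 1 fell (HAM3), and all 5 changes were under 2-fold. Over all 20491 genes tested, 33.8% were called in this comparison, 17.6% up and 16.2% down, and the 5 of 10 genes called are to be read against that share. The median log2 fold change was 0.20 over the 10 genes, 0.27 over the 7 NF-YA genes and -0.03 over the 3 HAM genes, beside -0.00397 over all genes tested.

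NF-YA2, which with NF-YA10 is known for roles in root architecture and leaf growth, moved the furthest of the genes that passed. It had 12.4, 15.035 and 15.1 CPM in WT, and in se-1 it had 25.3, 27.4 and 26.7 CPM. The lowest se-1 library was thus well above the highest WT library, and the log2 fold change was 0.90 ± 0.0864 (SE, adjusted p = 6.51e-06 in the quasi-likelihood test of edgeR, adjusted by Benjamini-Hochberg as all adjusted p here), a 1.87-fold rise. NF-YA3, which acts together with NF-YA8 in the early embryo, had 8.08, 10.102 and 9.01 CPM in WT, and in se-1 it had 12.95, 14.5 and 13.6 CPM. Again the groups did not overlap, with a log2 fold change of 0.60 ± 0.103 (adjusted p = 0.000677). NF-YA8 itself went from 5.29, 5.36 and 5.66 CPM in WT to 6.65, 6.80 and 7.17 CPM in se-1, without overlap and with a log2 fold change of 0.34 ± 0.111 (adjusted p = 0.0324). This call was lost in 7 of 12 alternative settings, among them DESeq2 and the omission of any se-1 library or of WT replicate 1 or 2, with adjusted p from 0.0318 to 0.152.

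The other NF-YA genes did not pass the test in se-1. NF-YA5, known for its part in drought tolerance, was listed at 2.09, 2.13 and 1.81 CPM in WT and, in se-1, at 2.42, 2.27 and 2.57 CPM. Although the 3 se-1 libraries were the higher ones, the log2 fold change of 0.27 had a 95% interval from -0.12 to 0.65 (adjusted p = 0.278). NF-YA1 (0.11, interval -0.06 to 0.27, adjusted p = 0.311) and NF-YA9 (0.14, interval -0.11 to 0.39, adjusted p = 0.388), both known from studies of the embryo, overlapped between the groups. Their intervals leave room for a rise of less than that of NF-YA2 and for no change.

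NF-YA10 differed from NF-YA2 in direction, although both hold the same site. It was the least abundant of the genes, with 1.02, 1.94 and 1.68 CPM in WT, from 23 to 41 counts. In se-1 it had 1.16, 0.601 and 0.856 CPM, from 13 to 23 counts. The groups overlapped through the first library of each, and the log2 fold change of -0.82 (95% interval -1.51 to -0.14) had an adjusted p of 0.0625. It passed in 5 of 12 alternative settings, with adjusted p from 0.0235 to 0.211.

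The 3 HAM genes, which share 1 site, went different ways in se-1. HAM2 had 31.8, 26.9 and 30.7 CPM in WT and, in se-1, 36.7, 36.9 and 36.8 CPM. All se-1 libraries were above all WT libraries, and the log2 fold change was 0.31 ± 0.0698 (adjusted p = 0.00477). HAM3 had 35.1, 34.4 and 29.9 CPM in WT and, in se-1, 28.9, 23.3 and 23.4 CPM, with no overlap, although the highest se-1 library lay close to the lowest of WT. Its log2 fold change was -0.39 ± 0.0927 (adjusted p = 0.00582). HAM1, the most abundant of the genes per kb, had 56.4, 53.5 and 52.0 CPM in WT and, in se-1, 53.5, 51.6 and 53.6 CPM, and its 95% interval from -0.15 to 0.10 on the log2 scale (adjusted p = 0.761) holds neither the rise of HAM2 nor the fall of HAM3 as fitted. NF-YA2, NF-YA3, HAM2 and HAM3 passed in all 12 alternative settings of this comparison.

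Some marker levels moved with the se-1 libraries, and in whole seedlings fewer cells of a type and less RNA per cell cannot be told apart. The summed level of 6 root markers was 155 to 162 CPM in WT and, in se-1, 113 to 139 CPM, with 3 of the 6 called down. Most of this sum was PHO1, whose mean went from 110 CPM (WT) to 80.0 CPM (se-1). COBL9 and EXPA7 were called down as well, by -0.52 and -0.47 on the log2 scale. CASP1, MYB36 and RSL4 went the other way without a call, at 0.18, 0.16 and 0.18, so the root markers did not fall as a set. The 6 flower markers summed to 1.91 to 2.37 CPM in WT and, in se-1, 5.32 to 6.25 CPM, and 3 of the 4 that were tested rose. Of these, AP1 and LFY, with 1 and 20 counts summed over the WT libraries, were kept through the se-1 libraries. They could enter the test only if they were higher there. The 4 shoot meristem markers summed to 22.5 to 24.1 CPM in WT and, in se-1, 24.1 to 30.4 CPM, and neither of the 2 tested was called. Of 4 leaf mesophyll markers 2 rose, from a sum of 22300 to 22600 CPM to one of 25500 to 27400 CPM. The part of these shifts in the values of the NF-YA and HAM genes was not tested.

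**Figure D2:**
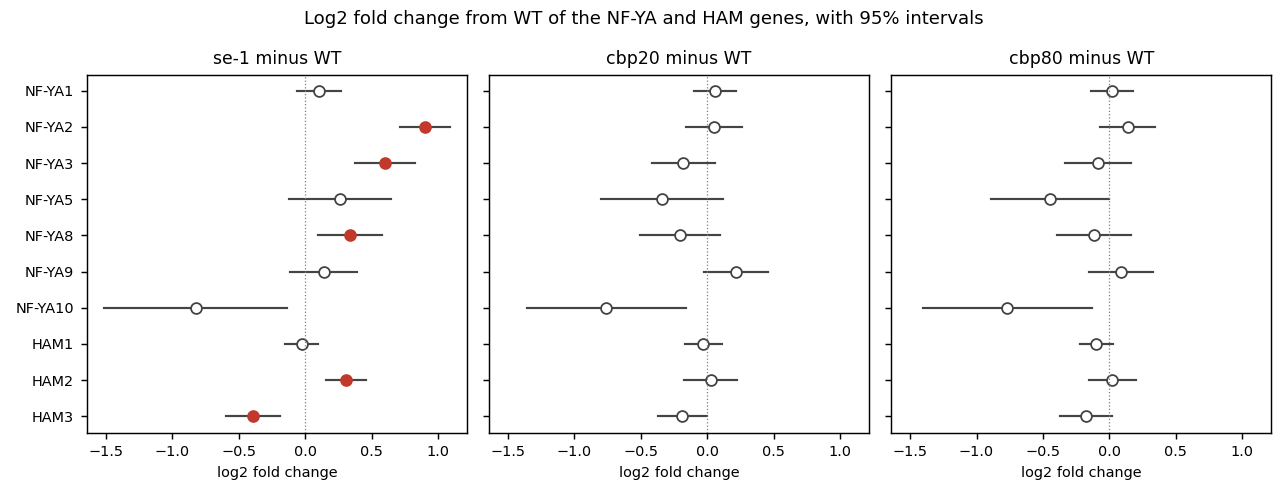
Log2 fold change from WT (x axis) of the 10 genes (y axis) in se-1, cbp20 and cbp80, with 95% intervals from the edgeR fits as lines and filled points for an adjusted p under 0.05. Filled points appear for NF-YA2, NF-YA3, NF-YA8, HAM2 and HAM3 in se-1, and none in cbp20 or cbp80, where the intervals of NF-YA2 lie near 0.

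In the mutants of the cap-binding complex, 0 of the 10 genes were called by edgeR, in cbp20 or in cbp80. The background was 19.7% of 20475 genes called in cbp20 (10.2% up and 9.48% down) and 38.7% of 20543 in cbp80 (20.1% up and 18.6% down). At an unadjusted p under 0.05, 2 of the 10 passed in cbp20 and 2 in cbp80, and DESeq2 called 0 in each. With library size as the only scaling, which lowers all cbp80 values relative to WT by a median of 0.08 on the log2 scale, 3 genes were called down in cbp80. The median log2 fold change over the 10 genes was -0.10 in cbp20 and -0.09 in cbp80.

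NF-YA2, the strongest riser in se-1, stayed in the range of WT in both. It had 15.4, 13.3 and 15.4 CPM in cbp20, with a log2 fold change of 0.05 (95% interval -0.16 to 0.26, adjusted p = 0.773). In cbp80 it had 14.2, 16.6 and 15.9 CPM, with a log2 fold change of 0.14 (interval -0.07 to 0.35, adjusted p = 0.292). These intervals exclude a rise of the size fitted in se-1. NF-YA3 was slightly below WT, at 8.07, 8.35 and 7.52 CPM in cbp20 (-0.18, adjusted p = 0.296) and 9.17, 7.59 and 8.80 CPM in cbp80 (-0.09, adjusted p = 0.582). NF-YA8 overlapped with WT in both mutants, at -0.20 in cbp20 (adjusted p = 0.355) and -0.12 in cbp80 (adjusted p = 0.505).

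NF-YA10 came closest to a call. It had 0.991, 0.948 and 0.752 CPM in cbp20, all below the lowest WT library, and 0.674, 0.839 and 1.15 CPM in cbp80, where 1 library overlapped with WT. The log2 fold changes were -0.76 in cbp20 (95% interval -1.36 to -0.16, adjusted p = 0.0735) and -0.77 in cbp80 (interval -1.40 to -0.13, adjusted p = 0.0549), close to the -0.82 of se-1, and all 3 were measured against the same WT libraries. WT replicate 1, at 1.02 CPM, lay within the range of the mutants. Without WT replicate 1, NF-YA10 passed in cbp20 (adjusted p = 0.0205), and it passed in 6 of 12 alternative settings in cbp80. The counts behind these values, 13 to 28 per mutant library, set wide intervals.

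NF-YA5 had 1.47, 1.99 and 1.29 CPM in cbp20 (-0.34, adjusted p = 0.301) and 1.19, 1.58 and 1.60 CPM in cbp80, below all 3 WT libraries (-0.45, 95% interval -0.89 to -0.01, adjusted p = 0.101). Its direction was thus the opposite of that in se-1, without a call in any of the 3 mutants. NF-YA1 (0.06 and 0.02) and NF-YA9 (0.22 and 0.09) differed from WT in cbp20 and cbp80 by less than their intervals.

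The HAM genes varied little in these mutants. HAM2, which rose in se-1, had 31.5, 26.2 and 33.4 CPM in cbp20 (0.03, adjusted p = 0.887) and 27.5, 29.6 and 33.6 CPM in cbp80 (0.02, adjusted p = 0.854). HAM3 had 31.3, 26.2 and 29.7 CPM in cbp20 (-0.19, interval -0.37 to -0.01, adjusted p = 0.145) and 25.9, 33.6 and 28.4 CPM in cbp80 (-0.18, adjusted p = 0.148). It was below WT on average in all 3 mutants, with a call in se-1. HAM1 was at 50.2, 52.5 and 56.2 CPM in cbp20 (-0.03, adjusted p = 0.802). In cbp80, at 49.0, 50.2 and 51.9 CPM, its libraries were all just below those of WT (-0.10, adjusted p = 0.203).

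Markers shifted in these mutants as well. The root markers summed to 148 to 160 CPM in cbp20 and 130 to 140 CPM in cbp80, beside 155 to 162 CPM in WT, with 1 called up in each and 1 down in cbp80. PHO1, most of this sum, was the marker called down, at a mean of 110 CPM in WT and 80.1 CPM in cbp80. CASP1 was the marker called up in both mutants. The shoot meristem markers summed to less than in WT, at 19.6 to 20.7 CPM in cbp20 and 17.8 to 20.9 CPM in cbp80, with 1 of 2 tested called down in each. This was KNAT1, most of the sum, at a mean of 20.5 CPM in WT, 17.5 CPM in cbp20 and 15.9 CPM in cbp80. STM was not called, at means of 2.98, 2.67 and 2.86 CPM in WT, cbp20 and cbp80. The flower markers were above WT, at 2.95 to 3.21 CPM in cbp20 and 3.47 to 4.81 CPM in cbp80. The leaf mesophyll markers summed to 22700 to 26500 CPM in cbp20, with 0 of 4 called, and to 21700 to 24400 CPM in cbp80. In cbp80, RBCS1A and RBCS3B were called up (0.32 and 0.40 on the log2 scale), as they were in se-1. The part of these shifts in the values of the NF-YA and HAM genes, and in the falls of NF-YA7, HAM4, PORC and CLV2 given further on, was not tested.

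A call in se-1 and none in the other mutants does not show a difference, so the mutants were compared directly. Between se-1 and cbp20, 5 of the 10 genes were called, all higher in se-1, beside 13.6% of 20882 genes called, 7.40% higher and 6.24% lower. The differences on the log2 scale were 0.85 ± 0.0881 for NF-YA2 (adjusted p = 7.97e-06), 0.78 ± 0.102 for NF-YA3 (adjusted p = 7.34e-05), 0.54 ± 0.128 for NF-YA8 (adjusted p = 0.00966), 0.60 ± 0.193 for NF-YA5 (adjusted p = 0.0478) and 0.28 ± 0.0893 for HAM2 (adjusted p = 0.0473). For all 5, the 3 se-1 libraries were above the 3 cbp20 libraries, and the share of all genes without overlap was not counted. The calls of NF-YA5 and HAM2 were the weakest. NF-YA5 passed in 2 and HAM2 in 6 of 12 alternative settings, and the count fell to 3 without se-1 replicate 1, 2 or 3 or without cbp20 replicate 1.

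Between se-1 and cbp80, 4 of the 10 genes were called, again all higher in se-1, beside 11.4% of genes called, 5.49% higher and 5.95% lower. These were NF-YA2 (0.76 ± 0.0878, adjusted p = 3.67e-05), NF-YA3 (0.69 ± 0.101, adjusted p = 0.000333), NF-YA5 (0.71 ± 0.197, adjusted p = 0.0267) and NF-YA8 (0.46 ± 0.128, adjusted p = 0.0286). HAM2 differed by 0.28, with all se-1 libraries higher, and just missed the threshold (adjusted p = 0.0514). DESeq2 called 2 of the 10 genes, and 2 were left without se-1 replicate 3, cbp80 replicate 1 or cbp80 replicate 2. NF-YA2 and NF-YA3 passed in all 12 alternative settings of both comparisons.

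HAM3, the gene that fell in se-1, was not shown to differ between se-1 and cbp20 (-0.21, 95% interval -0.43 to 0.01, adjusted p = 0.218) or cbp80 (-0.22, interval -0.44 to 0.00437, adjusted p = 0.207). NF-YA10 differed by only -0.07 and -0.06 from cbp20 and cbp80, with intervals that reach from about -0.76 to 0.64 and hold large differences in either direction. Between cbp80 and cbp20, edgeR called 0 of the 10 genes, DESeq2 called 0, and 0 had an unadjusted p under 0.05, beside 10.2% of all genes called (5.99% higher in cbp80 and 4.17% lower). The largest difference in this pair was -0.13 for NF-YA9 (interval -0.34 to 0.08).

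**Figure D3:**
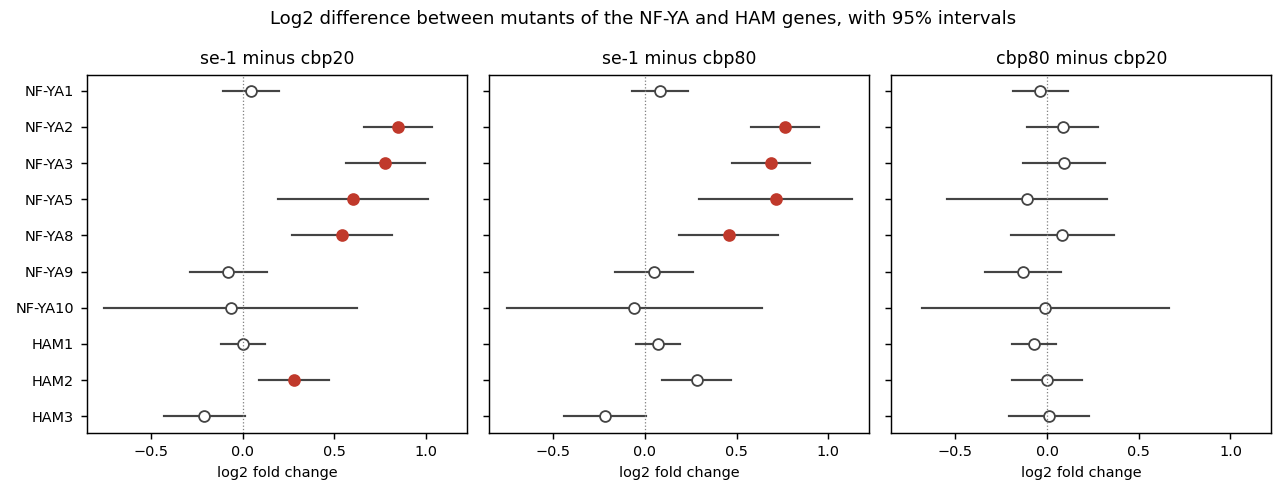
Log2 difference between 2 mutants (x axis) of the 10 genes (y axis), with 95% intervals from 1 edgeR fit of all 12 libraries as lines and filled points for an adjusted p under 0.05. NF-YA2, NF-YA3, NF-YA5 and NF-YA8 are filled on the right in both comparisons of se-1 and HAM2 in the one with cbp20, while no point is filled for cbp80 minus cbp20.

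Transcripts of MIR loci are the precursors from which the microRNAs are cut. Mature microRNAs were not measured in these libraries. Of 14 MIR169 loci 1 (MIR169a) and of 4 MIR170 and MIR171 loci 3 (MIR171a, MIR171b and MIR171c) had enough counts to be tested, and all 4 were called up in all 3 mutants. MIR169a, MIR171a and MIR171b had 10 counts in fewer than 3 WT libraries and were kept through the mutant libraries, so that they could enter the test only if they were higher there.

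MIR171c, which alone was above the filter in WT, had 0.888, 0.664 and 0.634 CPM in WT. In se-1 the level was 10.4, 9.85 and 10.6 CPM, with a log2 fold change of 3.81 ± 0.160 (adjusted p = 1.14e-08). The levels were lower in cbp20, at 3.85, 4.29 and 3.87 CPM (2.45 ± 0.203, adjusted p = 1.70e-06), and in cbp80, at 4.82, 5.31 and 5.10 CPM (2.79 ± 0.190, adjusted p = 6.02e-08). MIR171a, whose microRNA pairs with the HAM site at every base, had 0.311, 0.190 and 0.227 CPM in WT, from 7, 4 and 5 counts. Its precursor reached 6.85, 6.84 and 7.38 CPM in se-1, 2.63 to 3.41 CPM in cbp20 and 4.41 to 4.80 CPM in cbp80, with log2 fold changes of 4.82, 3.57 and 4.19. MIR171b rose less, by 2.52, 1.37 and 1.19 on the log2 scale in se-1, cbp20 and cbp80.

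MIR169a had 18, 4 and 2 counts in the WT libraries, so that WT replicate 1 (0.800 CPM) stood above the others (0.190 and 0.0906 CPM). It had 8.05 to 9.37 CPM in se-1, 2.50 to 2.799 CPM in cbp20 and 2.55 to 4.10 CPM in cbp80, all above WT, with log2 fold changes of 4.55, 2.85 and 3.18. It was called without WT replicate 1 as well, in all 3 mutants. MIR171a, with under 10 counts in each WT library, could not be tested once a mutant library was left out, and in cbp20 MIR171c alone of the MIR171 loci was called without cbp20 replicate 1. All 4 loci were higher in se-1 than in cbp20, by 1.15 to 1.70 on the log2 scale, and higher in se-1 than in cbp80, by 0.63 to 1.37. Between cbp80 and cbp20, MIR171a was called (0.62, adjusted p = 0.00677) and the other 3 loci were not. The 6 neighbouring loci MIR169i to MIR169n, which encode the same mature sequence and were looked at together after their counts were seen, summed to 2, 1 and 1 counts in WT and to 48, 36 and 33 in se-1. They summed to 7 to 11 counts in cbp20 and 9 to 23 in cbp80. MIR170 had 1 to 7 counts in every library. MIR169c summed to 17 counts over the WT libraries and to 9, 10 and 11 over those of se-1, cbp20 and cbp80. Its WT libraries spread from 0.136 to 0.489 CPM and overlapped with those of each mutant. Not all loci were thus shown to be higher in the mutants.

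**Figure D4:**
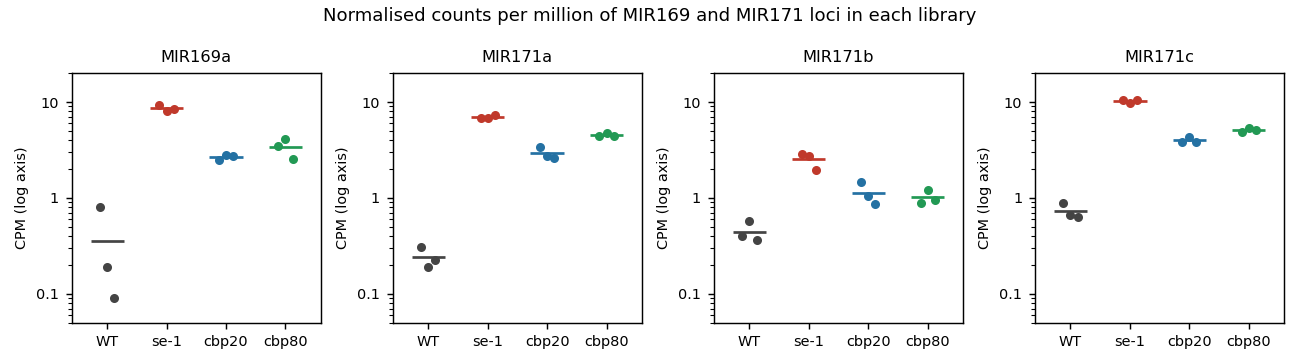
CPM on a log axis of MIR169a, MIR171a, MIR171b and MIR171c in each library by genotype, with points for libraries and horizontal lines for the arithmetic mean (n = 3). In each panel the mutants lie above WT and se-1 is the highest, for MIR171c at 9.85 to 10.6 CPM against 0.634 to 0.888 CPM in WT.

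The families hold 4 further genes, of which NF-YA6 has a miR169 site and the others have none within the penalty limit. NF-YA4 (AT2G34720), with a best penalty of 10, overlapped with WT in all 3 mutants, at -0.07, -0.07 and 0.02 on the log2 scale in se-1, cbp20 and cbp80. NF-YA7 (AT1G30500), with a penalty of 8, fell in all 3. It had 12.3, 12.5 and 13.7 CPM in WT and, in se-1, 8.32, 7.03 and 7.38 CPM (-0.76 ± 0.101, adjusted p = 9.47e-05). In cbp20 it was at 9.13 to 9.44 CPM (-0.46, adjusted p = 0.00247) and in cbp80 at 8.06 to 9.54 CPM (-0.54, adjusted p = 0.000583), so no mutant library reached WT.

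NF-YA6, whose 3′ UTR holds a miR169 site of a lower penalty than any of the 7 NF-YA genes chosen, had 3.46, 3.56 and 4.26 CPM in WT and, in se-1, 4.69, 6.80 and 5.62 CPM. It rose in se-1 alone (0.61 ± 0.161, adjusted p = 0.0116), was at 0.00 in cbp20 and 0.20 in cbp80 (adjusted p = 0.995 and 0.275), and was higher in se-1 than in cbp20 (0.61, adjusted p = 0.0119). The difference from cbp80 did not pass (0.40, adjusted p = 0.0910). The call in se-1 was lost without se-1 replicate 2, the highest library, and 27.8% of its exon bases are shared with a gene on the other strand.

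HAM4 (AT4G36710) lies just outside the penalty limit, at 4.5 for its best site, and is the HAM gene that was not chosen. It fell in all 3 mutants. It had 15.3, 15.7 and 16.1 CPM in WT. The levels were 11.996, 10.45 and 10.9 CPM in se-1 (-0.50 ± 0.0863, adjusted p = 0.000746), 12.7 to 13.96 CPM in cbp20 (-0.25, adjusted p = 0.0405) and 10.4 to 12.3 CPM in cbp80 (-0.43, adjusted p = 0.00203). All mutant libraries were below those of WT, although the call in cbp20 was lost without cbp20 replicate 1 or 2, without any WT library, and in DESeq2. HAM3 in se-1 (-0.39) moved in the direction of HAM4, and HAM2 in the other.

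**Figure D5:**
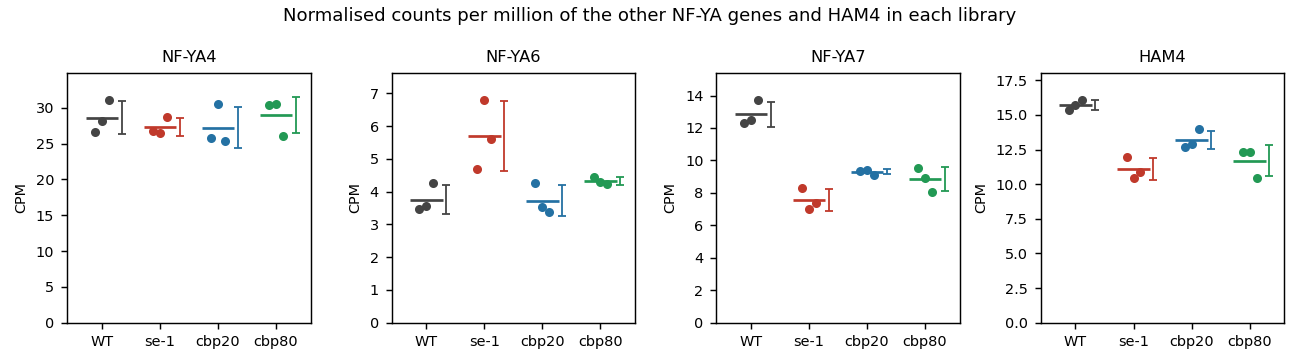
CPM of NF-YA4, NF-YA6, NF-YA7 and HAM4 (y axis from 0) in each library by genotype, with points for libraries, horizontal lines for the mean and bars for the SD (n = 3). NF-YA7 and HAM4 are lower in every mutant library than in WT, while NF-YA6 is raised in se-1, from 3.46 to 4.26 CPM in WT to 4.69 to 6.80 CPM.

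The calls among the partner subunits of NF-YA are to be read against 17.6%, 10.2% and 20.1% of all genes called up in se-1, cbp20 and cbp80. In the NF-YB list of 10 genes, 2 of 7 tested rose in se-1 (NF-YB3 by 0.46 and NF-YB5 by 1.02 on the log2 scale), 1 of 6 in cbp20 (NF-YB3 by 0.37) and 2 of 7 in cbp80 (NF-YB2 by 0.43 and NF-YB3 by 0.64). NF-YB5 had 11, 10 and 9 counts in the WT libraries and 15, 26 and 15 in those of se-1. It was near the filter and met it in this comparison only with the se-1 libraries. NF-YB2 and NF-YB3 are known to promote flowering. Among 10 NF-YC genes, of which 5 were tested, NF-YC3 rose in se-1 (0.24), NF-YC4 rose in cbp80 (0.22), and 0 were called in cbp20, by edgeR or DESeq2, with 0 at an unadjusted p under 0.05. Neither NF-YC call was made by DESeq2, and both were lost without WT replicate 3. Genes on the other strand share 42.8% of the exon bases of NF-YB2, 18.9% of NF-YC3 and 21.2% of NF-YC4.

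Among 28 other GRAS genes, the family of the HAM proteins, 26 were tested. In se-1, 4 rose and 6 fell, in cbp20 3 rose and 4 fell, and in cbp80 4 rose and 9 fell, beside the 33.8%, 19.7% and 38.7% of all genes called in se-1, cbp20 and cbp80. The median log2 fold changes of the list were -0.14, -0.05 and -0.07. RGL1, a DELLA repressor of gibberellin signalling, fell by 1.31 in se-1, by 0.54 in cbp20 and by 1.22 in cbp80 on the log2 scale. SCL7 and SCL11 were the others with the smallest p in se-1, at -0.71 and -0.51, and 71% of the exon bases of SCL11 are shared with genes on the other strand. In cbp20 and cbp80 these were SCL29, at -1.74 and -2.56, and SCL30, at 0.34 and 0.43. SCL29 summed to only 97 counts over the WT libraries, 30 over those of cbp20 and 16 over those of cbp80. It was kept in both tests through the WT libraries, where it is higher.

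The POR genes encode the protochlorophyllide oxidoreductases of chlorophyll synthesis, of which PORC is a known target of HAM repression. PORC fell in se-1, from 165 to 173 CPM in WT to 96.4 to 134 CPM (-0.51, adjusted p = 0.00143), and in cbp80 (-0.40, adjusted p = 4.44e-05). In cbp20 it was below WT in all libraries without a call (-0.18, adjusted p = 0.0912). PORB fell in se-1 (-0.77) and cbp80 (-0.37), and PORA, at 3.35 to 13.7 CPM, was called up in cbp20 (0.63, adjusted p = 0.0493) although its libraries overlapped with WT. Among 7 genes around the HAM partner WUSCHEL in meristem signalling, CLV2, a receptor protein of the CLAVATA pathway, fell in se-1 (-0.61), cbp20 (-0.37) and cbp80 (-0.93). In cbp80, CLV1 fell (-0.43) and WOX5 rose (0.83).

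Over all 12 libraries, the mean of the 7 NF-YA genes (log2 CPM) was most like the patterns of AT5G13560, FAR1 (AT5G22500) and FMO1 (AT1G19250), with Pearson's r of 0.913, 0.905 and 0.901 among 20872 genes searched. The mean of the HAM genes was most like AT1G62780, AT3G24480 and LIP2 (AT1G04640), with r of 0.908, 0.887 and 0.880. These are descriptions over libraries that fall into 4 genotypes and share their scaling, and the gene at rank 100 still had r of 0.779 and 0.725.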

How the data were processed

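Poly(A) RNA of whole seedlings was sequenced in paired-end reads. Reads of rRNA and tRNA were taken out by the authors with Bowtie2 2.1.0, and the rest were aligned to TAIR10 with TopHat2 2.1.1 and assigned to genes, as read pairs, with featureCounts 1.5.0-p3. The deposited unit is counts, whole read pairs without normalization. Pairs were counted without strand, and pairs on several genes or several places were not counted. The authors also deposited 6 tables of DESeq2 comparisons with log2 fold changes and p-values, which were not used.

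Libraries were grouped by genotype as labelled, and none was left out. A gene entered a fit if 3 or more of its libraries had 10 or more counts. The tests were run in edgeR 4.0.16 (R 4.3.3) after TMM normalization by the two-sided quasi-likelihood test, with Benjamini-Hochberg adjustment over all genes tested. An adjusted p-value under 0.05 was a call. Mutants were compared with WT on 6 libraries, and with each other in 1 fit of 12. Standard errors were worked back from the F statistic and are approximate. In the simulated comparison of se-1 with WT, the test on 20491 genes called 97 of 100 genes changed by 1 and 44 of 100 changed by 0.5 on the log2 scale. Every simulated gene had the same spread between libraries, and far fewer genes were changed than were called in the data. These rates are thus not the power for the genes described here. The alternatives were other scalings, no filter, DESeq2 1.42.0, other libraries in the fit, a replicate block, and leaving out each library.

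The 10 genes and all lists were chosen with earlier results of these data known. Named were all 10 genes, the other NF-YA genes, HAM4, the POR genes, the MIR loci that passed the filter, the mutated genes, up to 3 called genes with the smallest p in each other list and comparison, and the 3 genes most like each family mean. Sequences were read from TAIR10.1, where 99.95% of 32548 paired genes have the deposited start and end. Sites were searched in spliced transcripts without gaps (Python 3.11.15).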

Additional observations from a re-analysis of the deposited data

Results flagged for a closer look

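The direct tests between mutants (edgeR, 1 fit of all 12 libraries, 3 libraries a group) found 9 differences past the threshold among the 10 genes, so that their change from WT differed between these mutants. Higher in se-1 than in cbp20 on the log2 scale were NF-YA2 (0.85), NF-YA3 (0.78), NF-YA5 (0.60), NF-YA8 (0.54) and HAM2 (0.28). Higher in se-1 than in cbp80 were NF-YA2 (0.76), NF-YA5 (0.71), NF-YA3 (0.69) and NF-YA8 (0.46). In each of these 9, all 3 se-1 libraries were above all 3 libraries of the other mutant, but the share of all genes without overlap was not counted. Against cbp20, NF-YA5 passed in 2 and HAM2 in 6 of 12 alternative settings. Against cbp80, NF-YA5 and NF-YA8 each passed in 7 of 12. Groups of 3 libraries are too small for a test of single outlying libraries.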

How the results depend on the processing

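Over 12 alternatives in each comparison, no call of the 10 genes turned its direction. The count of genes called in se-1 against WT was 4 to 6, against 5. In cbp80 against WT, where edgeR called 0, the count was 3 with library size only, and 1 each without a filter, with edgeR on all 12 libraries and with the replicate block. Leaving out 1 library gave 0 to 1 calls in cbp20 and 0 to 1 in cbp80. Between se-1 and cbp20, the count of 5 fell to 3 with library size only and was 3 to 4 without 1 library. Between se-1 and cbp80, the count of 4 fell to 2 with DESeq2 on all 12 libraries and was 2 to 5 without 1 library. The causes were not tested. Replicate numbers were not treated as pairs in the main fits. Same-numbered libraries of 2 genotypes correlated by -0.0703 to 0.135 in their deviations from the group means. Differently numbered ones correlated by -0.156 to 0.118, and such weak values do not decide whether the libraries were paired. With the replicate block the calls were 5 in se-1, 0 in cbp20, 1 in cbp80, 4 for se-1 against cbp20, 5 for se-1 against cbp80 and 0 for cbp80 against cbp20. Library size only also moved the split of all calls, from 3602 up and 3319 down to 2649 and 5074 in se-1, from 2090 and 1941 to 1676 and 2608 in cbp20, and from 4125 and 3830 to 3130 and 5529 in cbp80. Between mutants the split went from 1545 and 1302 to 1237 and 1869 for se-1 against cbp20, and from 1251 and 870 to 1018 and 1144 for cbp80 against cbp20. Without a filter, 7 of the MIR169 loci rose in se-1, against 1, beside 3717 of 26470 genes called up in that setting. The 13 MIR169 loci other than MIR169a together had 14, 4 and 4 counts in the WT libraries. At such counts a fall could hardly have been seen. Depth limits NF-YA10 and NF-YA5, with 13 to 49 counts in a library, more than the other genes.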
